A study of Mus musculus with 8 samples.

Results

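Long intergenic noncoding RNA (lincRNA) genes lie between protein-coding genes and give transcripts that are usually capped, spliced and polyadenylated but are not known to be translated into protein. The genes described here are 438 of the 2777 lincRNA genes in the count tables, which list 43346 genes in all. They were taken by annotation and by a floor on counts: biotype lincRNA in GENCODE M21, and 10 or more counts in at least 2 of the 8 libraries. Of the other lincRNA genes, 2309 did not reach the floor, 5 in the imprinted interval of chromosome 12 and 25 with symbols beginning Platr, Snhg or Lncenc were left out. At the floor, 18 members had a second highest count of exactly 10, and 18 genes left out had 9. Of the 438 members, 398 carry a provisional symbol (Gm or Rik) and 40 a name of their own. In 319 members the libraries of all 4 groups included one with 10 or more counts, while 23 members reached the floor through the libraries of a single group. The low-count filter of the test passed 427 members and left 11 untested.

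Work on individual lincRNAs has described several modes of action. Xist acts on the X chromosome it is made from, and Neat1 and Malat1 build or occupy nuclear bodies. Cyrano and Norad bind a microRNA or an RNA-binding protein in the cytoplasm or nucleus. Others serve mainly as primary transcripts from which microRNAs are cut. For most annotated lincRNA genes no function is known, and their transcripts are typically less abundant and more restricted to single cell types than mRNAs.

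The RNA came from mouse embryonic stem cells of background (129xC57BL/6), kept on gelatin in serum and leukaemia inhibitory factor. All 4 groups, the controls included, carry Rosa26Cre-ERT2/BirA-V5, an inducible Cre recombinase and a tagged biotin ligase at the Rosa26 locus. Wild type here means this parental line. The TRIM71-/- line (knockout) lacks the RNA-binding protein TRIM71. The line homozygous for Mbnl1 3'UTR(mut) (mutant) has both copies of the Mbnl1 3' untranslated region changed; Mbnl1 encodes a splicing factor. The overexpression line was stably transfected with MBNL1::T2A::Puromycin. Each group has 2 libraries. The labels do not name the promoter of the transgene, nor say whether a line is 1 clone or whether the libraries of a group came from separate cultures, so a property of the line and the effect of the named change cannot be told apart, and p-values measure the spread between these libraries only.

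Library totals were 75056306 to 86508533 counts. Trim71 stood at 629.9 and 628 CPM (counts scaled to library size) in wild type and at 101 and 105 in knockout cells, and Mbnl1 at 25.9 and 26.1 in wild type, 48.8 and 50.9 in knockout cells, 28.6 and 27.4 in mutant cells, where it did not pass (adjusted p = 0.086), and 193 and 195 in overexpression. The labels do not say which bases of Trim71 are deleted. All 10 embryonic stem cell markers examined were present. Their summed level was 4411 and 4414 CPM in wild type, 5527 and 5548 in knockout cells, 4986 and 4969 in mutant cells and 5155 and 5206 in overexpression. The 7 feeder or fibroblast markers summed to 3.74 and 3.94, 7.07 and 7.29, 3.89 and 4.15, and 5.96 and 5.32 CPM in the same order. The summed level of 8 primitive endoderm markers was 45.4 and 51.8 CPM in wild type, 24.9 and 25.9 in knockout cells, 62.1 and 74.7 in mutant cells and 33.7 and 27.0 in overexpression. For 6 trophoblast markers it was 35.2 and 32.6, 60.5 and 61.7, 23.2 and 21.8, and 17.4 and 16.8 CPM in the same order. For 6 neural markers it was 76.7 to 77.1 CPM in knockout cells and 113 to 122 CPM in the other groups. The 6 markers of 2-cell-like cells were at or near 0, with 3 of them at 0 in every library. In bulk RNA, fewer cells of a type and less RNA per cell cannot be told apart.

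The sources used here name no strand setting for the counting, so reads of a member and of an overlapping gene on the other strand cannot be told apart; 82 members overlap a coding gene's span and 40 share exon bases with a gene on their own strand. Members were mostly of low level. Their median over the 8 libraries was 0.379 CPM, with quartiles of 0.148 and 1.28 CPM; 311 stood under 1 CPM and 27 at 10 CPM or more. They took 2.79 to 5.32% of all counts, most of it from Gm26917 and Gm42418 on chromosome 17, which resemble ribosomal RNA; without these the share was 0.507 to 0.612%. Scaled by exon length, the highest wild-type levels were 10758 CPM per kb for Gm26917, 1714 for Gm42418, 542 for the nuclear speckle RNA Malat1, 421 for Gm42743, which shares exon bases with the histone gene Hist2h2bb, and 56.7 for Gm10076. Epb41l4aos, Mir17hg, H19, Gm14230 and Gm6712 followed at 56.1, 24.8, 18.7, 13.5 and 12.97 CPM per kb. The median member had 0.267 CPM per kb. Between the 2 libraries of a group, the median difference of a member (absolute log2, with 0.1 CPM added) was 0.147 to 0.209.

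Among the members, 18 hold a microRNA hairpin on their own strand, 29 hairpins in all by RefSeq or GENCODE, and these are the members whose product is known from sequence. The mature sequences below are those of the hosts on which results turn, from RefSeq on GRCm38.p6, written 5′ to 3′ with the seed (bases 2 to 8) in capitals. They are shown because members of different loci, or several hairpins of one host, share a seed: miR-9-5p is encoded by Mir9-1, Mir9-2 and Mir9-3 inside 3 different members, the let-7 hairpins of 6720427I07Rik share one seed, and Mir17hg holds pairs with a common seed.
mmu-miR-9-5p (hosts Gm3764, C130071C03Rik and Mir9-3hg): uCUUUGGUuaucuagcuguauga
mmu-let-7a-5p (host 6720427I07Rik): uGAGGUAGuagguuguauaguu
mmu-let-7d-5p (host 6720427I07Rik): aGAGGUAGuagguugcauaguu
mmu-let-7f-5p (host 6720427I07Rik): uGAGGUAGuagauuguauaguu
mmu-miR-17-5p (host Mir17hg): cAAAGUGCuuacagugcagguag
mmu-miR-20a-5p (host Mir17hg): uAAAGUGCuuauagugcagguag
mmu-miR-18a-5p (host Mir17hg): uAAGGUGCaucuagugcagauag
mmu-miR-19a-3p (host Mir17hg): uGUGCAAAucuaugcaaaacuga
mmu-miR-19b-3p (host Mir17hg): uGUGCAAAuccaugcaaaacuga
mmu-miR-92a-3p (host Mir17hg): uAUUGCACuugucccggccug
mmu-miR-205-5p (host 4631405K08Rik): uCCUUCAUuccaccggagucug
mmu-miR-374b-5p (host Ftx): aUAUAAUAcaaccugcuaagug
mmu-miR-421-5p (host Ftx): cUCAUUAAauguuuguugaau
mmu-miR-675-5p (host H19): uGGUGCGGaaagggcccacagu
mmu-miR-5103 (host Gm37233): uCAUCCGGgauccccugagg

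The first comparison asks how lincRNA transcripts differ in the line without TRIM71. More members were lower than higher in knockout cells. Of 427 members tested, 127 passed an adjusted p under 0.05 (edgeR), 41 higher and 86 lower, or 29.7%. Of all 18055 genes tested 45.1% passed, 24.2% higher and 20.9% lower, so the share of members called was below that of all genes, while the share called lower (20.1%) was near it. The median log2 fold change of the members was -0.21, and that of all genes -0.01. Without wild-type replicate 2 the members' median was -0.10, and without knockout replicate 2 it was -0.13. Among the calls, 26 rises and 29 falls reached 2-fold, a size reached by calls in 7.50% of all genes. Some members passed the count floor only through groups where they are high. Among the 319 members with 10 or more counts in all 4 groups, 10 rises and 16 falls reached 2-fold. Of all 16469 genes with such counts, 516 rises and 404 falls did. DESeq2 called 82 members, 21 higher and 61 lower, and 36.7% of all genes, 3661 higher and 2964 lower.

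**Figure D1:**
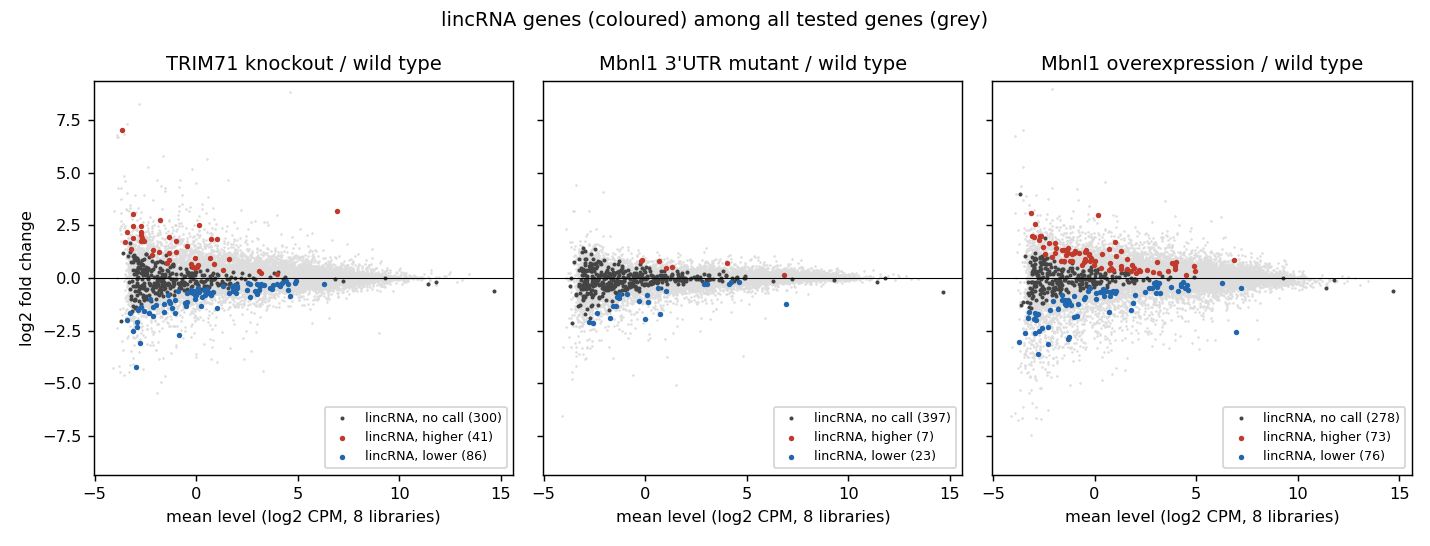
Mean level (x axis, log2 CPM over 8 libraries) and log2 fold change against wild type (y axis) of each tested gene in knockout cells, the mutant and overexpression. Grey points are all tested genes and coloured points lincRNA genes, red where higher, blue where lower and dark where no call was made. H19 is the red point of the left panel at a log2 fold change of 3.19, and the middle panel holds the mutant, where 7 members were higher and 23 lower.

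H19, the maternally expressed imprinted transcript and precursor of miR-675 (chromosome 7, 142575529 to 142578143, minus strand, mm10), was the member that rose most among the better expressed. It stood at 46.97 and 44.9 CPM in wild type and at 418 and 419.8 CPM in knockout cells, a log2 rise of 3.19 (SE 0.155, adjusted p = 0.000106 by edgeR). Its knockout libraries were far above those of every other group. Its imprinted neighbour Igf2 rose as well, by 1.55 (adjusted p = 3.21e-09). The summed trophoblast markers were also highest in knockout cells, although of the 5 tested 3 were higher and 2 lower. The part of these markers in the rise of H19 was not tested.

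G730013B05Rik (chromosome 16, 50526245 to 50559459) stood at 1.43 and 1.09 CPM in wild type and 4.38 and 4.65 CPM in knockout cells (log2 change 1.84, SE 0.156, adjusted p = 3.82e-08). Gm11635 (chromosome 11, 101610614 to 101615956) rose from 0.329 and 0.225 to 1.55 and 1.60 CPM (log2 change 2.49, adjusted p = 4.13e-08). Gm1070 (chromosome 6, 71293765 to 71302880), which overlaps the muscle gene Smyd1, rose from 0.785 and 1.01 to 3.17 and 3.21 CPM (log2 change 1.83, adjusted p = 2.41e-08). In all 3 both knockout libraries lay above both wild-type libraries. In each comparison, members named by size of change were required to have libraries that did not overlap, so this was fixed by the choice. Of 427 members tested, 279 had knockout and wild-type libraries apart, in either direction. Smaller rises were those of Gm10522 (0.93), Gm26829 (0.88), Lockd (0.66), 2810455O05Rik (0.64), Gm16001 (0.54) and Fam120aos (0.38), which complete the 10 highest called members with a mean of at least 1 CPM. Lockd is transcribed from the region just downstream of the cell cycle inhibitor gene Cdkn1b, which itself rose by 0.16 (adjusted p = 0.0061). 2810455O05Rik (adjusted p up to 0.122) did not pass in knockout cells without wild-type replicate 2 or knockout replicate 2. Gm16001 (adjusted p up to 0.26) and Fam120aos (adjusted p up to 0.32) did not pass in knockout cells without wild-type replicate 1, knockout replicate 1 or knockout replicate 2. Lockd (adjusted p = 0.0516) did not pass in knockout cells without knockout replicate 1. DESeq2 did not call 2810455O05Rik (adjusted p = 0.0558), Gm16001 (adjusted p = 0.133) or Fam120aos (adjusted p = 0.102) in knockout cells.

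Lower in knockout cells was above all Gm13067 (chromosome 4, 150049013 to 150056976), at 3.19 and 2.94 CPM in wild type and 1.21 and 1.04 CPM in knockout cells (log2 change -1.44, SE 0.145, adjusted p = 3.24e-07). Gm20939 (chromosome 17, 94864918 to 94878321), one of the more abundant members, fell from 30.3 and 32.5 to 17.8 and 16.9 CPM (log2 change -0.85, adjusted p = 4.93e-10). Gm9873 fell by 1.34, from 1.42 and 1.23 to 0.641 and 0.401 CPM. The wild-type and knockout libraries of these 3 did not overlap, which the naming rule required. Gm37245 (-0.93), B230217O12Rik (-0.89), 5930412G12Rik (-0.83), Gm38102 (-0.82), Gm26654 (-0.81), Ftx (-0.78) and Gm26853 (-0.73) made up the rest of the 10 lowest, as log2 changes. Of lower level, 5730419F03Rik, chosen after its values were seen, went from 0.241 and 0.265 to 0.0116 and 0.0121 CPM, the latter under the level of 3 counts.

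On 17 of 20 chromosomes the members' median in knockout cells was below that of the coding genes of the same chromosome. Other noncoding classes had medians below 0 too. Genes of GENCODE's antisense class had a median log2 change of -0.13 (447 genes) and those of its TEC class -0.40 (315 genes), against 0.02 for 14619 protein-coding genes. By edgeR's average level over the libraries, by which 132 tested members had at least 1 CPM, the share of members called rose with level, from 21.7% of 295 members under 1 CPM to 38.3% of 81 between 1 and 4 CPM and 62.7% of 51 at 4 CPM or more. For coding genes these shares were 33.6%, 51.9% and 55.8%. At 4 CPM or more 76.5% of the members, called or not, had a log2 change below 0 in knockout cells, and 47.4% of coding genes had. These shares describe the gene classes, and no test between classes was made.

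**Figure D2:**
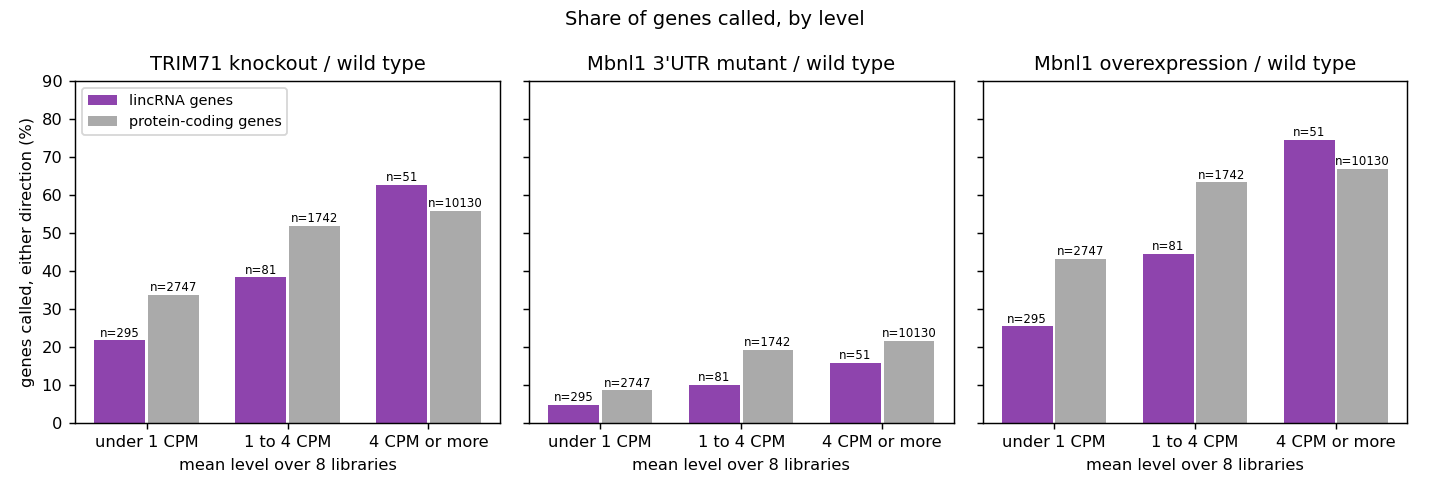
Share of genes called in either direction (bars, %) against wild type, for lincRNA and protein-coding genes in 3 classes of edgeR's average level, with the number of genes over each bar. In knockout cells the share of lincRNA genes ran from 21.7% under 1 CPM to 62.7% at 4 CPM or more.

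The next comparison asks how members differ where the Mbnl1 3' untranslated region is changed. Few members changed in mutant cells. Of 427 tested, 30 passed (7.03%), 7 higher and 23 lower, against 16.0% of all genes, 8.32% higher and 7.69% lower. The members' median log2 change was -0.07, that of all genes -0.01. Among the calls, 11 falls and no rise reached 2-fold. Of all genes 1.61% did, 33 higher and 258 lower. Among the 319 members with 10 or more counts in all 4 groups, 8 falls reached 2-fold. Of all 16469 genes with such counts, 24 rises and 154 falls did. DESeq2 called 12.7% of all genes in mutant cells. The count of 30 fell to 17 without wild-type replicate 1 and 18 without wild-type replicate 2, and to 18 with DESeq2, of which 7 were higher.

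G730013B05Rik fell to 0.351 and 0.412 CPM in mutant cells, a log2 fall of 1.72 (SE 0.216, adjusted p = 2.1e-05), below both wild-type libraries, while in knockout cells it was above them. H19 stood at 22.2 and 16.8 CPM, a fall of 1.23 (adjusted p = 0.0113). Gm37233, host of miR-5103 (chromosome 1, 34427002 to 34433264), fell from 1.05 and 1.10 to 0.218 and 0.327 CPM, by 1.98 (adjusted p = 1.24e-05). All 3 had both mutant libraries below both wild-type libraries. Mutant and wild-type libraries were apart, in either direction, in 199 of 427 members. Trp53cor1 (also called lincRNA-p21), induced by p53 next to Cdkn1a, fell from 1.08 and 1.14 to 0.399 and 0.643 CPM (-1.09, adjusted p = 0.00399). H19 (adjusted p up to 0.0766) did not pass in mutant cells without wild-type replicate 1 or wild-type replicate 2. Trp53cor1 (adjusted p = 0.0608) did not pass in mutant cells without mutant replicate 1. Gm11635 (-1.12), Gm20939 (-0.21), D230017M19Rik (-0.82), Gm13067 (-0.64), Gm26853 (-0.48), Gm10451 (-0.31), 2810429I04Rik (-0.31), Ftx (-0.29) and the let-7 host 6720427I07Rik (-0.22) were lower too, as log2 changes. Gm11635 (adjusted p up to 0.302) did not pass in mutant cells without wild-type replicate 1, mutant replicate 1 or mutant replicate 2. D230017M19Rik (adjusted p up to 0.0619) did not pass in mutant cells without wild-type replicate 1 or mutant replicate 2. Gm20939 (adjusted p = 0.0862) did not pass in mutant cells without wild-type replicate 2. 2810429I04Rik (adjusted p up to 0.116) did not pass in mutant cells without wild-type replicate 1, wild-type replicate 2 or mutant replicate 2. Gm26853 (adjusted p up to 0.186) did not pass in mutant cells without any 1 of the 8 libraries. DESeq2 did not call Gm11635 (adjusted p = 0.0686) or Gm26853 (adjusted p = 0.156) in mutant cells.

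The 7 members that rose in mutant cells all rose less than 2-fold, and 6 of them are described here. Among them, Gm2694 went from 1.67 and 1.74 to 2.55 and 2.36 CPM (log2 change 0.53, adjusted p = 0.00669). Both its mutant libraries were above both wild-type libraries, which the naming rule required. Gm10522 (0.79), Gm20610 (0.45) and 1700020I14Rik (0.15) rose also, as did Gm11496 (0.87) and Gm807 (0.81), which have a mean under 1 CPM and are named because the count is small. The change of 1700020I14Rik ran from 0.07 to 0.23 over the alternatives. 1700020I14Rik (adjusted p up to 0.338) and Gm2694 (adjusted p up to 0.0512) did not pass in mutant cells without wild-type replicate 1 or mutant replicate 1. Gm20610 (adjusted p up to 0.141) did not pass in mutant cells without wild-type replicate 1, wild-type replicate 2 or mutant replicate 2. Gm10522 (adjusted p = 0.0797) did not pass in mutant cells without wild-type replicate 2. Gm11496 (adjusted p = 0.107) did not pass in mutant cells without mutant replicate 1. Gm807 (adjusted p = 0.112) did not pass in mutant cells without wild-type replicate 1. DESeq2 did not call Gm20610 (adjusted p = 0.11) in mutant cells.

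The third comparison asks what differs with added MBNL1. Members were called higher and lower about equally often in overexpression. Of 427 tested, 149 passed (34.9%), 73 higher and 76 lower, against 54.8% of all genes, 27.7% higher and 27.2% lower. The members' median log2 change was -0.06, that of all genes -0.01, and without wild-type replicate 2 the members' median was 0.01. Among the calls, 32 rises and 36 falls reached 2-fold, a size reached by calls in 11.2% of all genes. Among the 319 members with 10 or more counts in all 4 groups, 22 rises and 18 falls did. Of all 16469 genes with such counts, 759 rises and 722 falls did.

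H19 had its lowest level of the 4 groups here, at 8.53 and 6.71 CPM, a log2 fall of 2.59 (SE 0.178, adjusted p = 0.000259), and Igf2 fell by 2.75 (adjusted p = 6.68e-11). The summed trophoblast markers were lowest here as well, and their part was not tested. G730013B05Rik fell to 0.346 and 0.484 CPM (-1.60, adjusted p = 4.17e-06). Gm26812 (chromosome 8, 121850194 to 121860621) fell from 4.46 and 4.65 to 1.58 and 1.59 CPM (-1.52, SE 0.117, adjusted p = 5.6e-09). C330002G04Rik (chromosome 19, 22978230 to 23075924), which overlaps the ion channel gene Trpm3, fell from 4.90 and 4.60 to 2.35 and 1.85 CPM (-1.17, adjusted p = 1.77e-07). No overexpression library of these 4 reached a wild-type level, which the naming rule required. Overexpression and wild-type libraries were apart, in either direction, in 279 of 427 members. The rest of the 10 lowest were D230017M19Rik (-1.02), Gm26654 (-0.86), Gm38102 (-0.86), Gm13166 (-0.81), Gm38150 (-0.74) and Gm13067 (-0.74).

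Gm11635 rose furthest of the better expressed members, to 2.29 and 2.22 CPM (3.01, SE 0.204, adjusted p = 1.02e-09). Gm1070 rose to 2.93 and 2.95 CPM (1.71, adjusted p = 2.95e-08). Gm2694, which overlaps the cerebellin gene Cbln1 (chromosome 8, 87460469 to 87525554), rose to 4.12 and 4.05 CPM (1.26, adjusted p = 6.61e-08), with 236 exon bases shared with Gm19872 on the same strand. The overexpression libraries of all 3 were above every wild-type library, as the naming rule required. Gm10522 (1.39), E230001N04Rik (1.11), Gm20610 (1.05), Gm53 (0.89), 1700020I14Rik (0.84) and Gm16001 (0.82) were also among the 10 highest.

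1700020I14Rik (chromosome 2, 119594297 to 119607502, also called Oip5os1 or Cyrano, an RNA with a conserved site for miR-7) stood at 89.02 and 99.3 CPM in wild type and 171 and 166 CPM in overexpression (log2 change 0.84, SE 0.0438, adjusted p = 3.2e-11). Coding genes of at least 1 CPM within 1 Mb of it had a median log2 change of 0.67. From 80 Mb to the end of chromosome 2, a boundary chosen after the values were seen, 596 coding genes had a median of 0.50 in overexpression, 0.01 in knockout cells and 0.02 in mutant cells. Of 25 members there, 9 were higher and 3 lower in overexpression, where 27.7% and 27.2% of all genes were. Among them 2900097C17Rik (Norad, which binds Pumilio proteins) went from 10.9 and 11.4 to 19.9 and 16.4 CPM (0.70, adjusted p = 0.000252), where coding genes within 1 Mb had a median of 0.51. Gm14230 went from 14.7 and 14.1 to 21.2 and 21.3 CPM (0.56), with a local coding median of 0.43. What part of these members' change belongs to the region was not tested. Without chromosome 2, 62 members (15.9%) were higher and 72 (18.4%) lower in overexpression. Of all genes outside chromosome 2, 25.4% were higher and 28.3% lower.

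**Figure D3:**
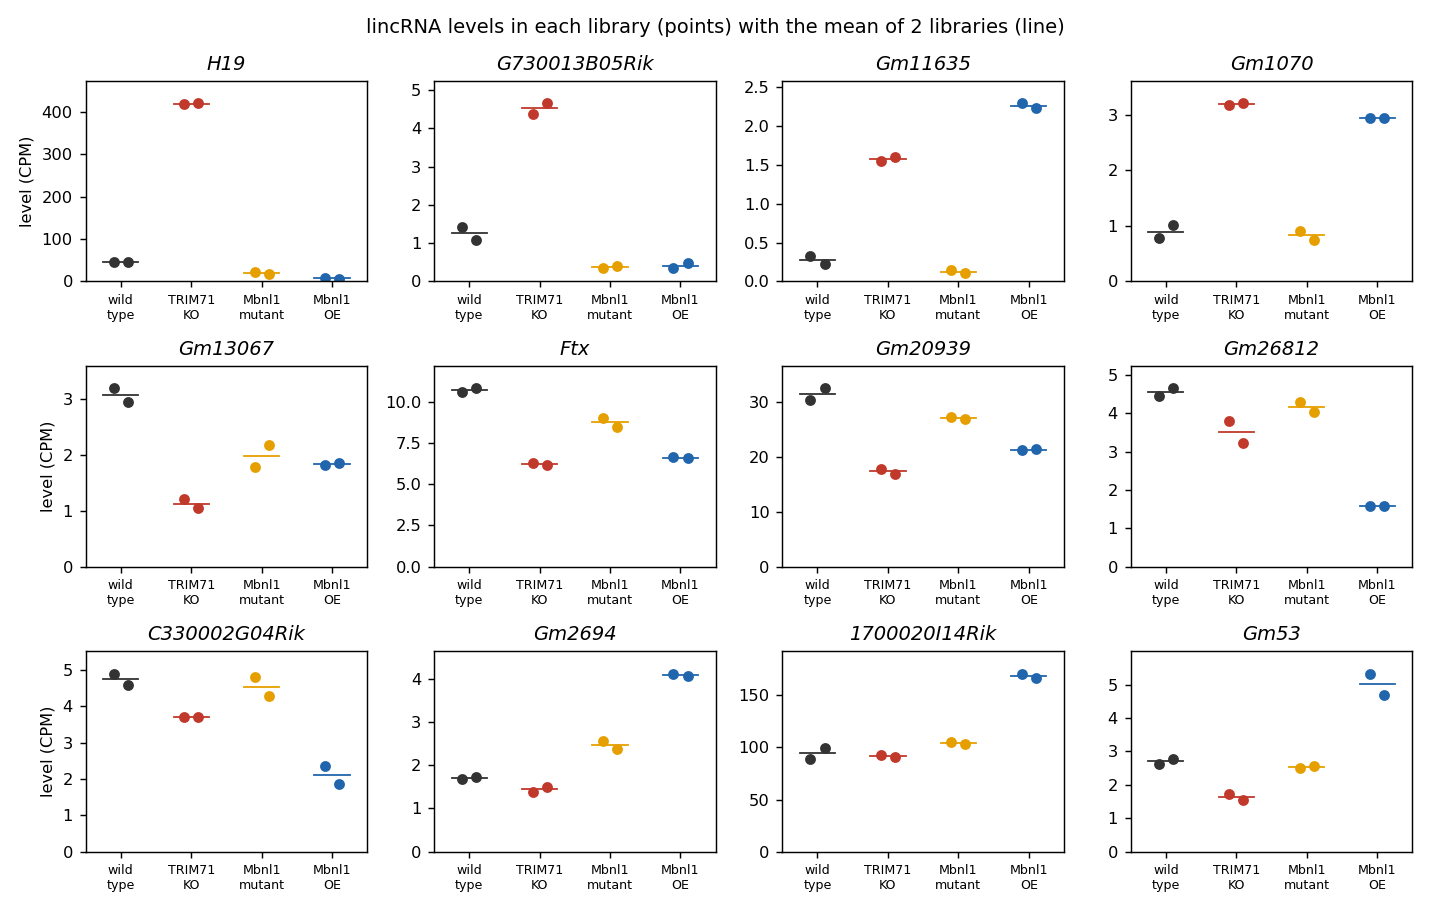
Level (y axis, CPM on a linear scale from 0) of 12 lincRNA genes in each library (points) with the mean of the 2 libraries of a group (line). H19 and G730013B05Rik are highest in knockout cells, Gm11635 and Gm1070 are raised in knockout cells and in overexpression, and Gm2694, 1700020I14Rik and Gm53 are highest in overexpression.

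The knockout and overexpression lines were also set directly against each other, a contrast whose fold changes do not use the wild-type libraries. Of 427 members 164 passed (38.4%), 58 higher and 106 lower in knockout cells, against 54.8% of all genes, 27.5% higher and 27.2% lower. The members' median was -0.15. H19 differed by 5.78 in log2 (SE 0.184, adjusted p = 1.44e-05) and G730013B05Rik by 3.44 (SE 0.182, adjusted p = 3.88e-11). Both were higher in knockout cells, as were Gm26812 (1.15), Gm19705 (0.91), Mdrl (0.84), C330002G04Rik (0.82), Gm26829 (0.71), D230017M19Rik (0.69), Dubr (0.59) and 4930509E16Rik (0.57). D230017M19Rik (adjusted p up to 0.218) did not pass between knockout and overexpression without knockout replicate 1 or overexpression replicate 1.

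Lower in knockout cells than in overexpression were Gm53, which lies in the Hoxb cluster near Hoxb9 (1.72 and 1.54 against 5.33 and 4.70 CPM, log2 difference -1.62, adjusted p = 2.34e-09), and Gm2694 (1.39 and 1.51 against 4.12 and 4.05 CPM, -1.50). The libraries of both groups were apart in each, as the naming rule required, and were apart in 285 of 427 members. Mir9-3hg (-1.15), 1110002J07Rik (-1.09), Gm9873 (-1.08), 5930412G12Rik (-1.02), E230001N04Rik (-0.95), Gm20610 (-0.87), 1700020I14Rik (-0.87) and Gm37245 (-0.85) followed. Among members of lower level, chosen after their values were seen, Gm28625 had 0.839 and 0.935 CPM in knockout cells and 0.0558 and 0.0460 in overexpression (log2 difference 4.08, adjusted p = 1.55e-08), with 0.355 and 0.424 in wild type between them. 1700021A07Rik had no count in wild type and in mutant cells, 0.210 and 0.182 CPM in knockout cells and 0 and 0.0460 CPM in overexpression. It reached the count floor through the knockout libraries only, so its high level there was fixed by the choice of members, and DESeq2 called it neither in knockout cells (adjusted p = 0.32) nor between knockout and overexpression (0.629).

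The 4 members listed for nuclear architecture were Malat1, Neat1, and Gm26917 and Gm42418, which resemble ribosomal RNA. Of these, 1 (Neat1) fell in overexpression and no other call was made. Malat1 stood at 3354 and 4213 CPM in wild type, 3243 and 3286 in knockout cells, 3872 and 3684 in mutant cells and 3611 and 3380.2 in overexpression, and with all libraries passed in no comparison (adjusted p = 0.192, 0.994 and 0.446 against wild type). The libraries of the other 3 groups lay between its 2 wild-type libraries except those of the knockout. Without wild-type replicate 1 it passed in knockout cells (log2 change -0.37, adjusted p = 2.02e-05) and in overexpression (-0.27, adjusted p = 0.000285), and without wild-type replicate 2 it passed as higher in mutant cells (0.17, adjusted p = 0.0319). Between knockout and overexpression it passed when only those 2 groups were fitted (adjusted p = 0.00451). Neat1, the scaffold of paraspeckles, stood at 155 and 181 CPM in wild type and 116 and 126 in overexpression, a fall of 0.47 (SE 0.108, adjusted p = 0.0157), and at 159 and 145 and 151 and 171 CPM in knockout cells and mutant, where it did not pass. Neat1 (adjusted p = 0.0895) did not pass in overexpression without overexpression replicate 1. Of 14 paraspeckle protein genes, 3 were higher and 1 lower in knockout cells, 4 higher and none lower in mutant cells, and 4 higher and 5 lower in overexpression, the lower ones including Pspc1 (log2 change -0.42) and Hnrnpa1 (-0.47). Of all genes 45.1%, 16.0% and 54.8% were called in these comparisons.

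Of the X inactivation genes, Xist is not a member by its biotype and stood at 0.0115 to 0.0970 CPM. Ftx, a noncoding gene of the X inactivation centre that hosts miR-374b and miR-421 (chromosome X, 103560907 to 103623790, minus strand), measured 10.6 and 10.8 CPM in wild type, 6.31 and 6.14 in knockout cells, 9.03 and 8.49 in mutant cells and 6.65 and 6.58 in overexpression. All 6 altered libraries were below both wild-type libraries, and the log2 changes were -0.78 (adjusted p = 6.03e-08), -0.29 (0.00563) and -0.69 (1.19e-07), against the same 2 control libraries. Jpx, an activator of Xist, stood at 0.380 and 0.358 CPM in wild type and 0.223 and 0.219 in overexpression and passed nowhere (adjusted p = 0.122, 0.498 and 0.0503). Of 12 genes for proteins that work with Xist, 2 were higher and 2 lower in knockout cells, 2 and 1 in mutant cells and 3 and 3 in overexpression, against 45.1%, 16.0% and 54.8% of all genes called. Rlim, which encodes the X-linked ubiquitin ligase that activates Xist, fell by 0.55, 0.30 and 0.65 in the 3 lines.

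Only 3 members were listed for p53 and growth arrest. Of these, 3 were lower in knockout cells, 1 in mutant cells and 2 in overexpression, and none was called higher. Of all genes 20.9%, 7.69% and 27.2% were called lower in these comparisons. Trp53cor1 stood at 0.711 and 0.680 CPM in knockout cells (-0.67, adjusted p = 0.0228) and at 1.01 and 0.702 in overexpression, where it did not pass (-0.37, adjusted p = 0.17). Lncpint, a p53-induced RNA, went from 0.874 and 0.650 CPM in wild type to 0.303 and 0.425 in knockout cells (-1.07, adjusted p = 0.0112) and 0.312 and 0.104 in overexpression (-1.86, adjusted p = 0.000229). Its libraries did not overlap wild type in either, and its overexpression change ran from -1.28 to -2.85 as single libraries were left out. Lncpint (adjusted p up to 0.118) did not pass in knockout cells without wild-type replicate 1 or knockout replicate 1. Trp53cor1 (adjusted p up to 0.105) did not pass in knockout cells without wild-type replicate 1, wild-type replicate 2, knockout replicate 1 or knockout replicate 2. DESeq2 did not call Trp53cor1 (adjusted p = 0.0893) in knockout cells. Pvt1, downstream of Myc, went from 15.7 and 16.1 CPM to 12.8 and 12.3 (-0.34, adjusted p = 8.42e-05) and 11.5 and 11.7 (-0.45, adjusted p = 2.17e-06). In mutant cells Lncpint and Pvt1 had log2 changes of -0.41 and -0.12 and did not pass.

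Of 7 members listed as regulators of stem cells or development, 4 rose and 1 fell in overexpression (1700020I14Rik, 2900097C17Rik and Miat were among those that rose, and Epb41l4aos fell), 2 rose in mutant cells and 1 rose and 2 fell in knockout cells. Of all genes 54.8%, 16.0% and 45.1% were called in these comparisons, and in overexpression 27.7% were higher and 27.2% lower. 1700020I14Rik and 2900097C17Rik lie in the part of chromosome 2 where coding genes had a median log2 change of 0.50 in overexpression. Miat, a nuclear RNA of neural and retinal cells, went from 1.46 and 1.29 CPM in wild type to 2.02 and 2.44 in overexpression (0.70, adjusted p = 0.000747). Epb41l4aos went from 23.96 and 24.3 CPM to 17.1 and 17.7 (-0.47, adjusted p = 2.6e-07). The overexpression libraries of both were apart from wild type. Bvht (Braveheart, known from cardiac differentiation) stood at 5.95 and 6.09 CPM in wild type and 5.00 and 5.27 in knockout cells (-0.23, adjusted p = 0.027). Bvht (adjusted p up to 0.188) did not pass in knockout cells without wild-type replicate 1, wild-type replicate 2, knockout replicate 1 or knockout replicate 2. DESeq2 did not call Bvht (adjusted p = 0.12) in knockout cells.

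Of the 18 microRNA hosts, 2 were higher and 7 lower in knockout cells, none higher and 5 lower in mutant cells, and 3 higher and 7 lower in overexpression. Of all genes 24.2% were higher and 20.9% lower in knockout cells, 8.32% and 7.69% in mutant cells, and 27.7% and 27.2% in overexpression. The counts are of the host transcript, and mature microRNAs were not measured. The 3 hosts of miR-9-5p are taken in turn. C130071C03Rik, which holds Mir9-2 (chr13:83738821-83738843 for the mature sequence, plus strand), went from 0.811 and 0.822 CPM in wild type to 0.116 and 0.134 in knockout cells (-2.69, SE 0.286, adjusted p = 6.12e-07), 0.798 and 0.994 in mutant cells and 0.335 and 0.357 in overexpression (-1.24, adjusted p = 0.000204). Mir9-3hg, which holds Mir9-3 (chr7:79505279-79505301, plus strand), went from 1.72 and 1.68 CPM to 1.00 and 1.12 in knockout cells (-0.69, adjusted p = 0.00106) and to 2.28 and 2.43 in overexpression (0.46, adjusted p = 0.00686). Both were low in knockout cells, and in overexpression one fell while the other rose. Mir9-3hg (adjusted p = 0.0515) did not pass in overexpression without overexpression replicate 2. Gm3764, which holds Mir9-1 (chr3:88215613-88215635, plus strand), had 0.291 and 0.398 CPM in wild type and passed in no comparison. The nearest coding gene upstream of C130071C03Rik, Mef2c, at 0.279 and 0.292 CPM in wild type, fell by 1.57 in knockout cells and 1.39 in overexpression. The summed neural markers were lower in knockout cells, and their part in the fall of these hosts, whose microRNA is known from neural progenitors, was not tested.

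**Figure D4:**
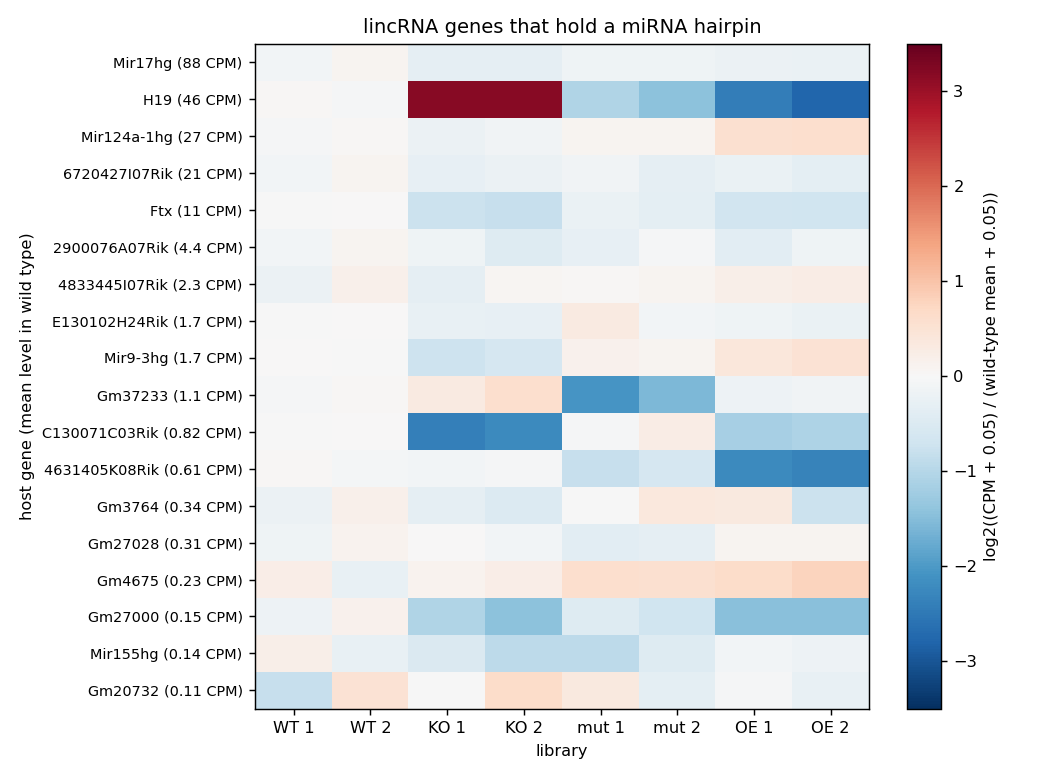
Level of the 18 lincRNA genes that hold a microRNA hairpin, in each library relative to the wild-type mean, as log2 of CPM with 0.05 added (colour; red is higher, blue lower), ordered by wild-type level. H19 is the deepest red in knockout cells, C130071C03Rik the deepest blue there, and 4631405K08Rik and H19 the deepest blue in overexpression.

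Mir17hg, the precursor of the miR-17 to miR-92 cluster, whose miR-17-5p and miR-20a-5p share the seed AAAGUGC and whose miR-19a-3p and miR-19b-3p share GUGCAAA, stood at 81.3 and 93.9 CPM in wild type and 70.8 and 70.98 in knockout cells (-0.31, SE 0.0513, adjusted p = 0.000164). It stood at 75.3 and 74.5 in overexpression (-0.23, adjusted p = 0.00147) and at 79.4 and 78.7 in mutant cells, which did not pass (adjusted p = 0.0646). Both wild-type libraries were above all 6 others. Without wild-type replicate 2 the changes of Mir17hg were -0.20 in knockout cells and -0.12 in overexpression, and without wild-type replicate 1 it passed in mutant cells (-0.25, adjusted p = 0.000934). The let-7 host 6720427I07Rik, whose 3 hairpins share the seed GAGGUAG, stood at 20.02 and 22.7 CPM in wild type, 17.4 and 18.5 in knockout cells, 19.5 and 17.3 in mutant cells and 18.2 and 16.9 in overexpression. Its log2 changes were -0.25 (adjusted p = 0.00829), -0.22 (0.0474) and -0.28 (0.00298). 6720427I07Rik (adjusted p up to 0.12) did not pass in knockout cells without wild-type replicate 2 or knockout replicate 1. 6720427I07Rik (adjusted p = 0.0552) did not pass in overexpression without wild-type replicate 2. Its call in mutant cells was lost in 10 of 15 alternatives, DESeq2 and other scalings among them (adjusted p up to 0.351). Lin28a, which encodes the protein that blocks let-7 maturation, fell by 0.56 in knockout cells and 0.49 in overexpression.

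4631405K08Rik, the host of miR-205 (chromosome 1, 193507238 to 193510174, minus strand), measured 0.633 and 0.583 CPM in wild type, 0.571 and 0.595 in knockout cells, 0.326 and 0.388 in mutant cells and 0.0892 and 0.0806 in overexpression. The fall in overexpression was 2.82 (SE 0.323, adjusted p = 8.62e-07) and that in mutant cells 0.77 (adjusted p = 0.0427), while the knockout did not pass. Its call in mutant cells was lost in 11 of 14 alternatives, among them DESeq2 and each single library left out (adjusted p up to 0.245). Mir124a-1hg, which holds Mir124a-1 and Mir3078, stood at 26.1 and 27.8 CPM in wild type, 23.2 and 24.7 in knockout cells (-0.17, adjusted p = 0.00921) and 39.96 and 40.3 in overexpression (0.57, adjusted p = 1.65e-08). Its overexpression libraries were the highest of all groups and its knockout libraries the lowest. Gm37233 rose slightly in knockout cells, to 1.35 and 1.64 CPM (0.47, adjusted p = 0.0395). Mirt1, listed with the hosts although no hairpin lies in it, rose from 0.241 and 0.305 CPM to 0.501 and 0.765 in knockout cells (1.21) and 0.792 and 0.530 in overexpression (1.28). Mir124a-1hg (adjusted p up to 0.159) did not pass in knockout cells without wild-type replicate 2 or knockout replicate 1. Gm37233 (adjusted p up to 0.291) did not pass in knockout cells without wild-type replicate 1, wild-type replicate 2, knockout replicate 2 or overexpression replicate 2. Mirt1 (adjusted p = 0.0799) did not pass in knockout cells without knockout replicate 2. DESeq2 did not call Gm37233 (adjusted p = 0.169) in knockout cells.

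The position of members beside coding genes was examined for those that share no exon bases with another gene on their strand. In 50 tested pairs, a coding gene on the same strand ended within 10 kb upstream of the member. In knockout cells both genes of 10 pairs were called, and all 10 moved in the same direction; in overexpression this was so for 11 of 12. For same-strand neighbours 10 to 100 kb away it was 10 of 19 and 21 of 30. For opposite-strand starts within 1 kb it was 8 of 10 and 9 of 12. Between knockout and overexpression it was 10 of 11 for same-strand neighbours within 10 kb and 20 of 31 at 10 to 100 kb. For opposite-strand starts it was 13 of 19 there. Of all genes, 45.1% were called in knockout cells, 54.8% in overexpression and 54.8% between knockout and overexpression. The overexpression pairs within 10 kb include 1700020I14Rik (0.84) with Chp1 (0.47), in the part of chromosome 2 where coding genes were raised. What that region adds to the agreement was not tested. The lincRNA gene 9030622O22Rik starts 2674 bases beyond the endoderm transcription factor gene Foxa2 on chromosome 2 and stood at 0.165 and 0.0796 CPM in wild type and 0.804 and 0.886 CPM in knockout cells (2.77, adjusted p = 3.93e-06). Foxa2 went from 4.26 and 2.94 to 17.8 and 18.03 CPM (2.31), whereas the summed primitive endoderm markers, of which Foxa2 is one, were lower in knockout cells. Gm26760, 2392 bases beyond the neural adhesion gene Cntn1, rose by 2.48 in knockout cells, and Cntn1 by 1.60. Cntn1 was of low level, at 0.101 and 0.172 CPM in wild type and 0.314 and 0.522 in knockout cells. Gm15675, 1836 bases beyond the complement regulator gene Cd55, fell by 1.41 in knockout cells and 1.28 in overexpression, and Cd55 by 0.98 and 1.19. These pairs were chosen after their values were seen.

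**Figure D5:**
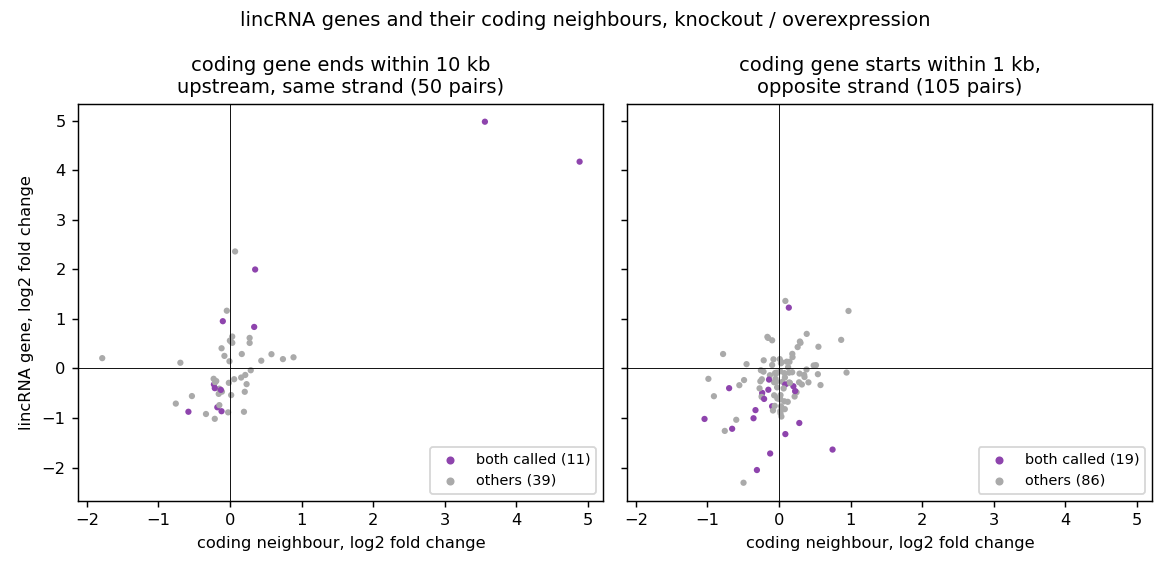
Log2 fold change, knockout against overexpression, of lincRNA genes (y axis) and of a coding neighbour (x axis), for neighbours that end within 10 kb upstream on the same strand (left, 50 pairs) and those that start within 1 kb on the opposite strand (right, 105 pairs). Purple marks pairs with both genes called; 2 pairs, with Foxa2 and Cntn1, lie far from the rest on the left.

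Across the 50 same-strand pairs the log2 changes of member and neighbour had a Pearson r of 0.59 in knockout cells, 0.52 in mutant cells and 0.63 in overexpression, and 0.77 between knockout and overexpression. With the 2 pairs of most extreme neighbours left out, r was 0.32, 0.21, 0.51 and 0.28. In the 16 pairs whose member had at least 1 CPM, r was -0.10, -0.52, 0.63 and 0.55. Where a coding gene started within 1 kb on the opposite strand (105 pairs), r was 0.44, 0.10, 0.26 and 0.33. Where the same-strand neighbour ended 10 to 100 kb away (130 pairs), r was 0.25, 0.07, 0.07 and 0.11. The points of each r share the same libraries, neighbouring genes are not independent of each other, and no p is given. Reads that run past the end of a coding gene were not separated from those of a member downstream.

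The nuclear exosome and its adaptors degrade many noncoding transcripts. Of 20 genes listed for them, 2 were higher and 5 lower in knockout cells. None was called in mutant cells, and 3 were higher and 8 lower in overexpression. The list medians were -0.02, 0.02 and -0.09. Zcchc14, whose place in this machinery was not examined, was among the higher genes in knockout cells (log2 change 0.22) and in overexpression (0.33). The largest fall in knockout cells was that of Exosc1, at a log2 change of -0.29. Called shares of all genes were 45.1%, 16.0% and 54.8% in the same comparisons.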

How the data were processed

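RNA of 8 libraries (4 groups of 2) was sequenced with 75 nt paired-end reads after a stranded total RNA preparation, per the labels' protocols. The deposited values are raw counts per gene, made by the authors from reads aligned with STAR 2.5.0 to mm10, per the submitters' processing notes; the sources used here name no counting program, annotation or strand setting. Gene biotypes and positions came from GENCODE M21, joined by Ensembl identifier without version: 42462 of 43346 genes matched. Library totals and the level of 3 counts (0.0335 to 0.0398 CPM) set the precision for low members.

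Of 27979 genes with a count, 18055 passed edgeR's filterByExpr (minimum count 10, minimum total 15). They were fitted together in edgeR 4.0.16 (limma 3.58.1, R 4.3.3) with TMM scaling and the robust quasi-likelihood test, with 4 residual degrees of freedom, and adjusted by Benjamini-Hochberg over all genes tested; a call is an adjusted p under 0.05. CPM values use TMM-scaled library sizes, and log2 fold changes are edgeR's. An exact permutation test of 2 against 2 libraries cannot go below p = 0.333 and was not used. Replicate numbers do not pair the libraries: deviations of same-numbered libraries correlated at -0.034 to 0.060. Alternatives were other scalings, other filters on low counts, DESeq2 1.42.0, the replicate number as a block, only the groups compared, and each library left out; the procedure was tested on simulated data, where small changes were found less often in lincRNA genes than in others and the share of false calls was above the threshold. Named were, in each comparison, the 10 highest and 10 lowest called members with an average (edgeR's log2 CPM average) of at least 1 CPM and groups that do not overlap, the 10 highest per kb in wild type, and members of fixed lists; others were chosen after their values were seen. Members and lists were chosen with earlier results of these data known. Values of 1 member that this rule names are not reported here.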

Additional observations from a re-analysis of the deposited data

How the results depend on the processing

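More members were called lower than higher in the knockout, and between knockout and overexpression, under every alternative run. In the mutant they were 12 and 12 without mutant replicate 2, and in overexpression 76 higher and 70 lower with library size only. Leaving out chromosome 2, members below 10 counts in any group, or members sharing exons, chosen after seeing the data, moved no total by over 1.5 times, but among members with 10 or more counts in all 4 groups the rises in the knockout fell from 41 to 25, those of 2-fold from 26 to 10 (2-fold falls from 29 to 16), and those between knockout and overexpression from 58 to 34 (2-fold from 35 to 11, 2-fold falls from 33 to 20). With genes of at least 1 CPM only, 127 members were tested. Of these, 65 were called in the knockout, 17 in the mutant, 74 in overexpression and 78 between knockout and overexpression. Of all 12783 genes tested in that setting, 55.0%, 21.2%, 65.8% and 64.2% were called, in the same order. DESeq2 called 82 in the knockout and 18 in the mutant, against 36.7% and 12.7% of all genes. With single libraries left out, the counts ran from 89 to 139, 17 to 28, 121 to 152 and 119 to 165, in the same order; the mutant's was 17 without wild-type replicate 1 and 18 without wild-type replicate 2. With the replicate block they were 129, 29, 148 and 164, and 204 of 208 called named results passed. DESeq2 kept 167 of 206. The overexpression median ran from -0.066 without wild-type replicate 1 to 0.0091 without wild-type replicate 2, and was -0.01 with library size only and -0.03 with only the 2 groups compared; the mutant median was -0.13 without wild-type replicate 1 and -0.03 without wild-type replicate 2. The Malat1 change in the mutant was -0.16 without wild-type replicate 1 and reversed to 0.17 (adjusted p = 0.0319, edgeR) without wild-type replicate 2. The cause of these shifts was not tested. Depth limits the 311 members under 1 CPM, and 2 libraries a group limit all.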
